A study of Homo sapiens with 6 samples.

Results

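The genes described here encode 10 transporters of neutral and cationic amino acids, out of 16625 genes measured in human neurons. The genes were listed by name: SLC7A1 and SLC7A3, SLC7A5 and SLC7A6, SLC1A4 and SLC1A5, SLC38A1 and SLC38A2, SLC43A2 and SLC6A9. All 10 were measured and tested. PolyA RNA was sequenced from neurons induced with the transcription factor NGN2 from induced pluripotent stem cells (iPSCs). There were 3 libraries from a line labelled PEDS1 knockout and 3 from a line labelled control. PEDS1 is the desaturase that completes plasmalogens, the ether lipids with a vinyl ether bond. Both lines carry NGN2 at the AAVS1 locus under doxycycline control, and doxycycline was in the medium of both. The design text gives an age of day 10 to 14 without assigning a day to a library. Each group has a single line as its source, so an effect of the knockout and a difference between lines cannot be told apart. Separate cultures are not stated, and the p-values then measure no more than the spread between libraries, which may be technical.

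Amino acids enter cells through carriers that differ in what they carry and what drives them. Carriers of the SLC7 family move cationic amino acids such as arginine and lysine, or, when joined to the heavy chain SLC3A2, exchange large neutral ones such as leucine. SLC1A4 and SLC1A5 are sodium-dependent exchangers of small neutral amino acids, SLC38A1 and SLC38A2 bring in glutamine and alanine together with sodium, SLC43A2 lets branched-chain amino acids and phenylalanine cross by facilitated diffusion, and SLC6A9 takes up glycine. Several of these genes are known targets of ATF4, the transcription factor that cells translate more of when amino acids run short or when proteins misfold in the endoplasmic reticulum.

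The targeted gene was at 836, 765 and 1349 normalized counts in the libraries labelled as replicates 1, 2 and 3 of the PEDS1 knockout, against 1360, 1347 and 1399 in control replicates 1, 2 and 3. A normalized count is the number of reads divided by a size factor of the library. The library labelled PEDS1 knockout replicate 3 lies within the control range, and PEDS1 did not pass the test, which asks for a limma p under 0.05 after adjustment over all genes (log2 fold change -0.52 ± 0.17 SE, limma adjusted p = 0.0725). Leaving that library out gave -0.77 (limma adjusted p = 0.000147). The labels do not name the edited part of PEDS1, and these counts would miss an edit that spares the transcript. Recovered reads per library ran from 17996634 to 28773664 in the libraries labelled knockout and from 25275584 to 44573013 in controls. The least covered of the 10 genes, SLC43A2, had at least 449 reads in every library. The labels do not divide the libraries into batches.

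Of the 10 genes, 4 fell in the libraries labelled knockout, 0 rose and 6 did not pass the test. The genes that fell were SLC7A3, SLC1A5, SLC6A9 and SLC1A4. Of all genes 7.69% fell and 5.95% rose (limma on log2 values, Benjamini-Hochberg adjusted p under 0.05). Without adjustment, 5 of the 10 had a p under 0.05 with a lower level and 3 with a higher level, beside 16.7% and 15.0% of all genes. The edgeR test on recovered reads also called 4 of the 10 that fell and 0 that rose (7.98% and 5.54% of all genes). The authors' deposited table called 4 that fell and 2 that rose, SLC7A6 and SLC38A2 (9.54% and 8.49% of its 15013 genes with an adjusted p). The median log2 fold change of the 10 genes was -0.23, beside -0.01 over all genes. In bulk RNA, fewer cells of a type and less RNA per cell cannot be told apart. Without control replicate 1 or without control replicate 2, 2 of the 10 fell, SLC7A3 and SLC1A5, and 0 rose. In these fits 2.15% and 2.02% of all genes fell and 1.59% and 1.49% rose. Leaving out the library labelled as replicate 1 of the knockout gave 3 that fell and 0 that rose (6.03% and 4.96% of all genes), and leaving out the one labelled replicate 2 gave 3 and 2 (5.23% and 3.85% of all genes). With the library labelled PEDS1 knockout replicate 3 left out, 5 of the 10 fell and 2 rose, when 11.1% of all genes fell and 10.4% rose.

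**Figure D1:**
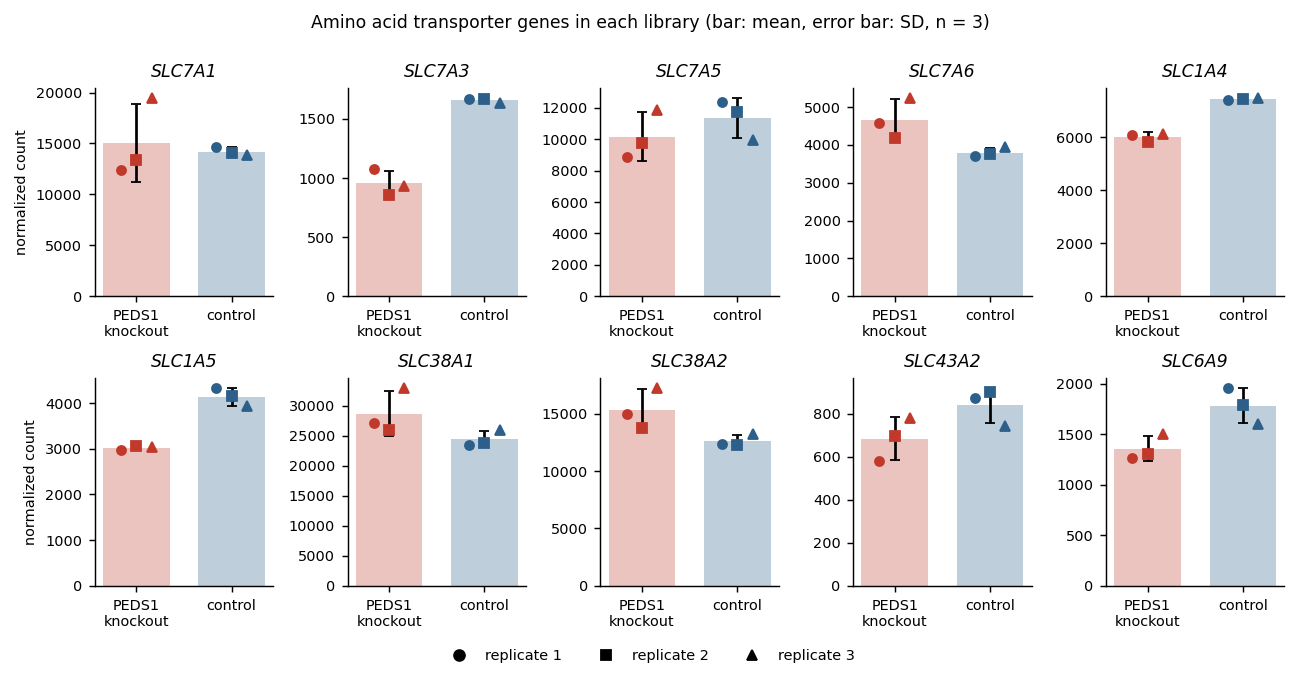
Normalized count (y axis, from 0) of each of the 10 transporter genes in the libraries labelled PEDS1 knockout (left, red) and in control libraries (right, blue). Bars are means, error bars SD (n = 3), and the marker shape gives the replicate number. SLC7A3, SLC1A4, SLC1A5 and SLC6A9 were lower in all 3 libraries labelled knockout than in any control, and SLC7A6, SLC38A1 and SLC38A2 were higher in all 3.

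The stretches around promoter motifs are shown because the 10 genes include ATF4 targets. The windows run from 250 bases before to 50 bases after each annotated start (RefSeq, GRCh38.p14). Of the 10 genes 9 had windows, 15 in all, and SLC7A3 had none. The letters searched on both strands were TGATGNAA for the composite site of ATF4 with a C/EBP partner, CCAAT and CCACG with 9 bases between them for the endoplasmic reticulum stress element and TGACGTGG for the element read by ATF6 in the unfolded protein response. TGATGNAA was found in 4 of the 15 windows, each of a different gene, and in 3.62% of 35116 windows of all genes. TGACGTGG was found in 1 window of the 10 genes and in 0.729% of all windows. The stress element was found in 0 windows of the 10 genes and in 0.0769% of all windows. In the lines that follow, each gene's 30 bases are given from 5′ to 3′ on its own strand, with the match in capitals. No match overlapped another.
SLC1A4, chr2:64989381-64989410, plus strand, reverse orientation, beginning 7 bases before a start: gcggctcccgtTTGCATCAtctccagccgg
SLC1A5, chr19:46784893-46784922, minus strand, beginning 97 bases before 1 of the 3 starts, which lies inside the gene: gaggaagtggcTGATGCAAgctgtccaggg
SLC7A1, chr13:29595663-29595692, minus strand, beginning at base 8 of the transcript: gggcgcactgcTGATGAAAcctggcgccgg
SLC38A1, chr12:46266502-46266531, minus strand, beginning 4 bases before a start: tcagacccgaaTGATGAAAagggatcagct
SLC7A6, chr16:68264486-68264515, plus strand, TGACGTGG beginning 29 bases before the start: ccggcggcgggTGACGTGGcggggcggggc
Of the 4 genes with the ATF4 letters, SLC1A4 and SLC1A5 fell, and SLC7A1 and SLC38A1 did not pass the test. A match is a run of letters and not a measured binding site.

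Neuronal markers were measured at 8 of 8, with summed normalized counts of 284274 to 293170 in the libraries labelled knockout and 250906 to 261346 in controls. Such a sum is weighted to the genes of highest count. Of the 8, 0 rose and 2 fell, beside 5.95% and 7.69% of all genes, with a median log2 fold change of 0.03. MAP2 and STMN2 were high in every library. Counts of TUBB3, a defining tubulin of neurons, were low. They were 136 to 202 in the libraries labelled knockout and 220 to 293 in controls. Overlaps with other genes were looked up for the 10 transporters alone, so reads of TUBB3 lost to an overlapping gene would not be seen here. TUBB3 (log2 fold change -0.70) and RBFOX3 (-0.36) fell. Neither passed after removal of GC content and length trends (limma adjusted p = 0.0577 for TUBB3 and 0.0585 for RBFOX3), and with 1 library left out TUBB3 passed in 2 of 6 fits and RBFOX3 in 3. Of 7 progenitor and dividing cell markers 6 were measured, summing to 27916 to 31386 in the libraries labelled knockout and 25992 to 27821 in controls, and TOP2A and PAX6 rose while SOX2 fell. Of 7 pluripotency markers 2 were measured, LIN28A, which rose, and DPPA4, summing to 660 to 856 in the libraries labelled knockout and 355 to 388 in controls. The other 5 of these, POU5F1 and NANOG among them, were not measured. Of 10 glial markers 6 were measured (summing to 566 to 573 in the libraries labelled knockout and 420 to 452 in controls). Of 8 mesenchymal and epithelial markers 4 were measured (102 to 133 in the libraries labelled knockout and 86.0 to 115 in controls), and COL1A2 rose. With 1 library left out SOX2 and COL1A2 each passed in 4 of 6 fits and PAX6 in 5. Of 6 endothelial and blood cell markers 0 were measured. The part of these cells in the transporter results was not tested.

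The cationic amino acid carriers were SLC7A1 and SLC7A3. SLC7A3 (ENSG00000165349, chromosome X, 70925582 to 70931125, minus strand, GRCh38), an arginine and lysine carrier found in brain, had 1074, 861 and 930 normalized counts in the libraries labelled as replicates 1, 2 and 3 of the PEDS1 knockout, against 1669, 1671 and 1638 in control replicates 1, 2 and 3. All 3 libraries labelled knockout were below every control, and the controls lay close together. The means were 955 ± 109 in the libraries labelled knockout and 1659 ± 18.6 in controls (SD, n = 3 each), so that the level was 57.6% of the control level. The log2 fold change was -0.80 ± 0.09 (SE, 95% interval -1.002 to -0.603; limma adjusted p = 0.000600). SLC7A3 had the smallest adjusted p of the 10 genes, and it passed with a lower level in all 18 fits run, the one reported here among them, and in the authors' deposited table.

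SLC7A1 (ENSG00000139514, chromosome 13, 29509410 to 29595688, minus strand), the widely expressed arginine and lysine carrier, had 12378, 13396 and 19468 normalized counts in the libraries labelled knockout, against 14670, 14068 and 13848 in controls. The groups overlapped. The library labelled PEDS1 knockout replicate 3 was the highest of the 6, at 1.51 times the mean of the other two labelled knockout, which were both below every control. The log2 fold change was 0.06 ± 0.14 (SE, 95% interval -0.26 to 0.37; limma adjusted p = 0.809), and -0.14 without that library (limma adjusted p = 0.0854).

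The ratio of SLC7A1 to SLC7A3 normalized counts within a library was 11.5, 15.6 and 20.9 in the libraries labelled knockout, against 8.79, 8.42 and 8.46 in controls. Such a ratio does not depend on how the libraries are scaled to each other, but it keeps their trends on GC content and length. It was higher in all 3 libraries labelled knockout, by 0.86 on the log2 scale. An exact two-sided permutation test gave p = 0.1, the smallest that 3 against 3 allows, and 0.15 adjusted over the 6 pairs examined.

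SLC7A5 and SLC7A6 encode light chains that work only when bound to the heavy chain SLC3A2. SLC7A5 (ENSG00000103257, chromosome 16, 87830023 to 87869488, minus strand), the exchanger of leucine and other large neutral amino acids, had 8835, 9788 and 11882 normalized counts in the libraries labelled knockout, against 12385, 11745 and 9939 in controls. The groups overlapped, with the library labelled PEDS1 knockout replicate 3 above 2 of the 3 controls. Its log2 fold change was -0.16 ± 0.12 (SE, 95% interval -0.42 to 0.09; limma adjusted p = 0.357). It was -0.07 without the library labelled replicate 1 of the knockout (limma adjusted p = 0.729), -0.28 with the library labelled replicate 3 left out (limma adjusted p = 0.0502) and 0.04 after removal of GC and length trends (limma adjusted p = 0.699). It passed in 1 of the 18 fits run, with library weights (-0.29, limma adjusted p = 0.00647). The reference annotation holds 2 pseudogenes named after SLC7A5, SLC7A5P1 and SLC7A5P2, also on chromosome 16, so its count is uncertain to the extent that reads were shared with them.

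SLC7A6 (ENSG00000103064, chromosome 16, 68264516 to 68301823, plus strand), which trades cationic for neutral amino acids, had 4586, 4185 and 5239 normalized counts in the libraries labelled knockout, against 3694, 3757 and 3942 in controls. All 3 libraries labelled knockout were above every control. It did not pass the test (log2 fold change 0.29 ± 0.09 SE, 95% interval 0.10 to 0.49; limma adjusted p = 0.0515). The authors' deposited table gave 0.30 and an adjusted p of 0.0242. It passed after removal of GC and length trends, the dependence of each library's values on base composition and transcript length (0.20, limma adjusted p = 0.0185) and with the library labelled PEDS1 knockout replicate 3 left out (0.21, limma adjusted p = 0.0341). SLC7A6OS, which lies on the opposite strand across 17321 bases of SLC7A6, had a log2 fold change of -0.03 (limma adjusted p = 0.838).

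The heavy chain gene SLC3A2 (chromosome 11, 62856102 to 62888875) fell. It had 7040, 6688 and 6086 normalized counts in the libraries labelled knockout, against 9078, 8630 and 8316 in controls, with -0.39 ± 0.08 (SE) as log2 fold change (limma adjusted p = 0.00974). All 3 libraries labelled knockout were below every control, and the library labelled replicate 3 was the lowest of the 6. The call was lost without control replicate 1 (limma adjusted p = 0.0647) and without control replicate 2 (limma adjusted p = 0.0610), and the log2 fold change was -0.22 after removal of GC and length trends (limma adjusted p = 0.0144).

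The ratio of SLC7A6 to SLC3A2 was 0.651, 0.626 and 0.861 in the libraries labelled knockout, against 0.407, 0.435 and 0.474 in controls. It was higher in all 3 libraries labelled knockout, by 0.69 on the log2 scale (exact two-sided permutation p = 0.1, 0.15 adjusted over the 6 pairs). The ratio of SLC7A5 to SLC3A2 was 1.26, 1.46 and 1.95 in the libraries labelled knockout, against 1.36, 1.36 and 1.20 in controls, and the groups overlapped (exact permutation p = 0.4). Between the light chains, the ratio of SLC7A5 to SLC7A6 was 1.93, 2.34 and 2.27 in the libraries labelled knockout, against 3.35, 3.13 and 2.52 in controls. It was lower in all 3 libraries labelled knockout, by a log2 difference of -0.46 (exact permutation p = 0.1, 0.15 adjusted over the 6 pairs). With GC and length trends removed, log2 fold changes were 0.04 for SLC7A5, 0.20 for SLC7A6 and -0.22 for SLC3A2. SLC7A6 then lay nearer to both SLC7A5 and SLC3A2.

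**Figure D2:**
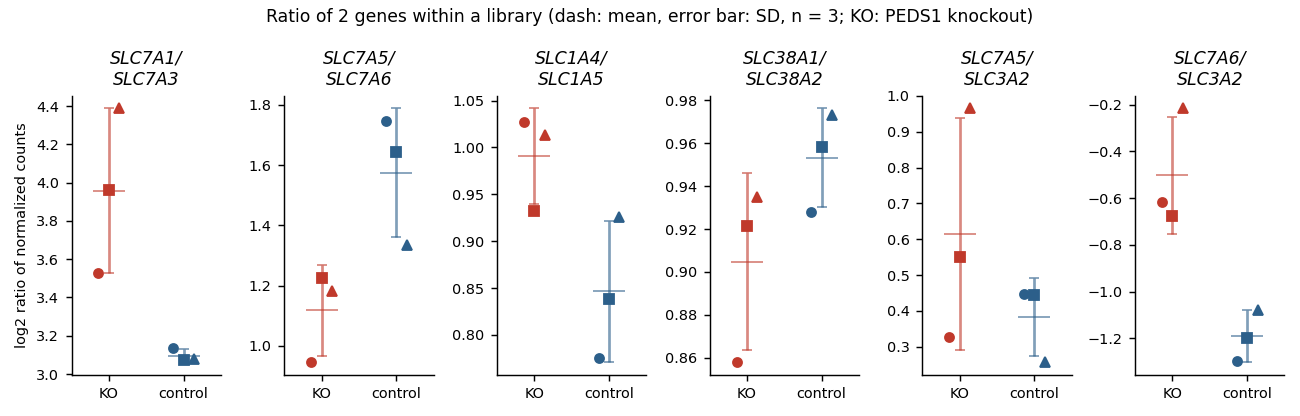
Log2 ratio of the normalized counts of 2 genes within each library (y axis, a separate range in each panel) for the libraries labelled PEDS1 knockout (KO, left) and control libraries (right). Dashes are means, error bars SD (n = 3), and circles, squares and triangles are replicates 1, 2 and 3. The groups did not overlap for SLC7A1/SLC7A3, SLC7A5/SLC7A6, SLC1A4/SLC1A5 and SLC7A6/SLC3A2, and overlapped for SLC38A1/SLC38A2 and SLC7A5/SLC3A2.

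Both sodium-dependent exchangers of small neutral amino acids fell. SLC1A5 (ENSG00000105281, chromosome 19, 46774883 to 46788594, minus strand), the glutamine exchanger, had 2982, 3049 and 3040 normalized counts in the libraries labelled knockout, against 4331, 4151 and 3936 in controls. The 3 libraries labelled knockout lay within a narrow range below every control, with means of 3024 ± 36.3 in the libraries labelled knockout and 4139 ± 198 in controls (SD, n = 3 each). This gave a log2 fold change of -0.45 ± 0.07 (SE, 95% interval -0.60 to -0.30; limma adjusted p = 0.00301). With the GC and length trends removed it was -0.20 (limma adjusted p = 0.0201), and it passed in all 18 fits. The antisense gene AC008622.2, which covers 780 bases of SLC1A5, fell by 0.79 on the log2 scale (limma adjusted p = 0.00489). The sources used here do not say whether counting used strand, so reads of such partners cannot be told apart.

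SLC1A4 (ENSG00000115902, chromosome 2, 64988477 to 65023865, plus strand), the exchanger of alanine, serine and cysteine, had 6077, 5821 and 6134 normalized counts in the libraries labelled knockout, against 7413, 7424 and 7474 in controls. All 3 libraries labelled knockout were below every control. The log2 fold change was -0.31 ± 0.06 (SE, 95% interval -0.45 to -0.17; limma adjusted p = 0.0124), and -0.39 after removal of GC and length trends (limma adjusted p = 0.000327). Without control replicate 1 (limma adjusted p = 0.0686) or control replicate 2 (limma adjusted p = 0.0916) the call was lost. The ratio of SLC1A4 to SLC1A5 was 2.04, 1.91 and 2.02 in the libraries labelled knockout, against 1.71, 1.79 and 1.90 in controls. It was higher in all 3 libraries labelled knockout, by 0.14 on the log2 scale (exact two-sided permutation p = 0.1, 0.15 adjusted over the 6 pairs). With GC and length trends removed the order was reversed, with SLC1A4 at -0.39 and SLC1A5 at -0.20, so the direction of this ratio depends on those trends.

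The sodium-coupled carriers SLC38A1 and SLC38A2 were higher in all 3 libraries labelled knockout, and neither passed the test. SLC38A2 (ENSG00000134294, chromosome 12, 46358189 to 46372867, minus strand), a carrier known for its induction when amino acids are withdrawn, had 14942, 13725 and 17276 normalized counts in the libraries labelled knockout, against 12362, 12259 and 13205 in controls. Its log2 fold change was 0.27 ± 0.09 (SE, 95% interval 0.08 to 0.47; limma adjusted p = 0.0641). The authors' deposited table gave 0.28 and an adjusted p of 0.0384. It passed after removal of GC and length trends (0.17, limma adjusted p = 0.0487) and with the library labelled PEDS1 knockout replicate 3 left out (0.18, limma adjusted p = 0.0447).

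SLC38A1 (ENSG00000111371, chromosome 12, 46183063 to 46270017, minus strand), a glutamine carrier of neurons, had 27082, 25995 and 33031 normalized counts in the libraries labelled knockout, against 23520, 23823 and 25926 in controls. The lowest library labelled knockout and the highest control were nearly level. SLC38A1 had a log2 fold change of 0.23 ± 0.09 (SE, 95% interval 0.02 to 0.44; limma adjusted p = 0.133), 0.07 after removal of GC and length trends (limma adjusted p = 0.333) and 0.12 with the library labelled PEDS1 knockout replicate 3 left out (limma adjusted p = 0.142). The ratio of SLC38A1 to SLC38A2 was 1.81, 1.89 and 1.91 in the libraries labelled knockout, against 1.90, 1.94 and 1.96 in controls. These overlapped, and the log2 difference was -0.05 (exact permutation p = 0.2).

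SLC6A9 (ENSG00000196517, chromosome 1, 43991500 to 44031467, minus strand), the glycine carrier that clears glycine around synapses, had 1269, 1306 and 1505 normalized counts in the libraries labelled knockout, against 1960, 1794 and 1605 in controls. All 3 libraries labelled knockout were below every control, the nearest pair being the replicates 3. The log2 fold change was -0.39 ± 0.10 (SE, 95% interval -0.61 to -0.18; limma adjusted p = 0.0275). This was the least stable of the 4 calls. It was lost after removal of GC and length trends (-0.18, limma adjusted p = 0.0688) and without any 1 of 4 libraries, the libraries labelled PEDS1 knockout replicates 1 and 2 (limma adjusted p = 0.0693 and 0.0732) and control replicates 1 and 2 (limma adjusted p = 0.137 and 0.121). CCDC24, on the opposite strand across 5029 bases of SLC6A9, fell by 0.59 on the log2 scale (limma adjusted p = 0.0162).

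SLC43A2 (ENSG00000167703, chromosome 17, 1569267 to 1628886, minus strand), the facilitative carrier of branched-chain amino acids, had 579, 694 and 778 normalized counts in the libraries labelled knockout, against 872, 899 and 744 in controls. The groups overlapped through the replicates 3. A log2 fold change of -0.30 ± 0.12 (SE, 95% interval -0.56 to -0.03) did not pass the test (limma adjusted p = 0.117). It passed after removal of GC and length trends (-0.24, limma adjusted p = 0.0338) and with the library labelled PEDS1 knockout replicate 3 left out (-0.40, limma adjusted p = 0.0278).

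**Figure D3:**
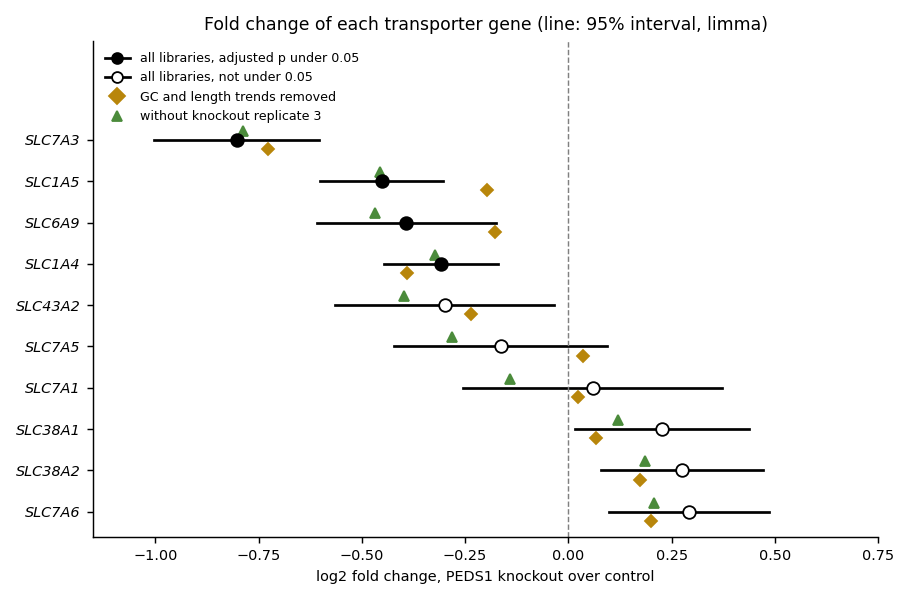
Log2 fold change of each transporter gene, PEDS1 knockout over control (x axis), with all libraries (circles, filled where the limma adjusted p is under 0.05; lines, 95% intervals), with GC and length trends removed (diamonds) and with the library labelled PEDS1 knockout replicate 3 left out (triangles). The sign was the same in all 3 fits for 8 genes, while SLC7A5 was at 0.04 with the trends removed and SLC7A1 at -0.14 without that library.

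Across the 10 genes, 4 were lower and 3 higher in all 3 libraries labelled knockout than in any control, while 18.2% of all genes were lower in this sense and 19.0% higher. The library labelled PEDS1 knockout replicate 3 was the highest of all 6 libraries for SLC7A1, SLC7A6, SLC38A1 and SLC38A2. For SLC7A3, SLC1A4 and SLC1A5 it lay close to the other libraries labelled knockout. The genes also differed in base composition. GC content of the longest annotated transcript was 51.8% in SLC7A3, 61.3% in SLC1A5, 59.6% in SLC6A9 and 46.5% in SLC1A4. It was 47.0% in SLC7A6, 38.1% in SLC38A2 and 41.3% in SLC38A1, the 3 genes that were higher. With the trends of each library on GC content and transcript length removed, SLC7A3, SLC1A4, SLC1A5 and SLC43A2 fell and SLC7A6 and SLC38A2 rose. Of the 16046 genes in that fit, 8.93% fell and 11.2% rose. The median of the 10 genes was then -0.08.

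The levels of the 10 genes can be compared after division by length. In normalized counts per kb of merged exons, SLC38A1 had the highest mean, at 2866 ± 378 in the libraries labelled knockout and 2439 ± 131 in controls (SD, n = 3 each, here and for the levels that follow). In control replicates 1 and 2 SLC7A5 was above it (2610 against 2348 and 2475 against 2379), and in control replicate 3 below it (2095 against 2589). SLC38A2 had 2320 ± 273 per kb in the libraries labelled knockout and 1910 ± 78.6 in controls. SLC7A5 had 2143 ± 328 per kb in the libraries labelled knockout and 2393 ± 267 in controls. SLC38A2 and SLC7A5 overlapped in range in the libraries labelled knockout and were apart in controls. SLC7A1 had 1961 ± 498 per kb in the libraries labelled knockout and 1845 ± 55.3 in controls. SLC1A5 followed with 908 ± 10.9 per kb in the libraries labelled knockout and 1242 ± 59.5 in controls. SLC1A4 had 866 ± 24.1 in the libraries labelled knockout and 1072 ± 4.74 in controls.

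In the libraries labelled knockout SLC7A6 came next at 615 ± 70.1 per kb and SLC7A3 after it at 422 ± 47.9. In controls SLC7A3, at 732 ± 8.23 per kb, came before SLC7A6, at 501 ± 17.0. The order of these genes thus differed between the groups, and neither pair overlapped in range. Merged exons span 2265 bases in SLC7A3 and 7588 in SLC7A6, over all annotated transcripts. Without division by length SLC7A6 was above SLC7A3 in every library, so the order in controls depends on the lengths used. SLC6A9 had 264 ± 24.6 per kb in the libraries labelled knockout and 346 ± 34.4 in controls, and SLC43A2 was the lowest, at 64.5 ± 9.42 in the libraries labelled knockout and 79.1 ± 7.79 in controls. Neighbours in the order overlapped in range among the upper 4 genes in the libraries labelled knockout. In controls SLC38A1 overlapped with SLC7A5, and SLC38A2 with SLC7A1. All other neighbours were apart. Summed over the 10 genes, the level was 11588.5, 11483 and 14213 per kb in the libraries labelled as replicates 1, 2 and 3 of the PEDS1 knockout, against 12792, 12520.5 and 12366 in control replicates 1, 2 and 3. The libraries labelled replicates 1 and 2 of the knockout were below every control and the one labelled replicate 3 was above every control, so the nearness of the means, 12428 ± 1546 in the libraries labelled knockout and 12560 ± 216 in controls, rests on that library (exact two-sided permutation p = 1, n = 3 each).

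**Figure D4:**
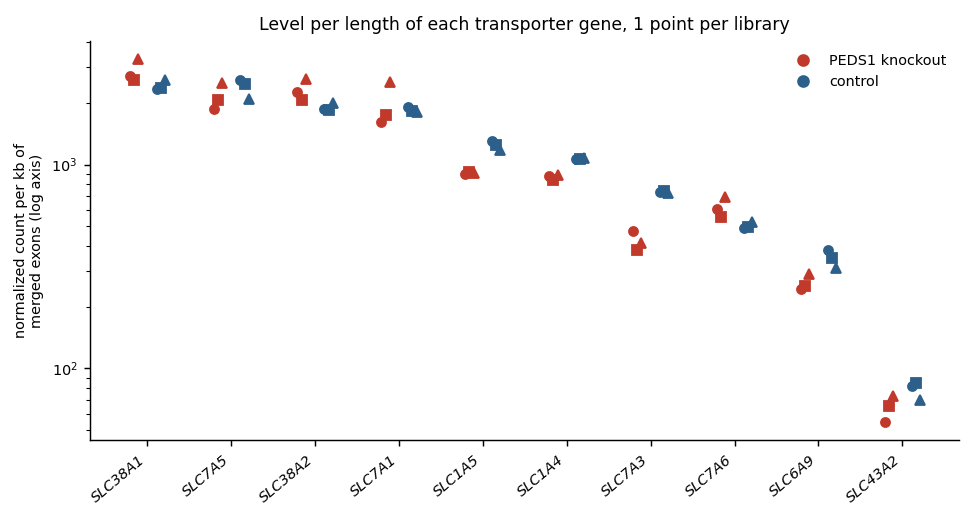
Normalized count per kb of merged exons (y axis, log scale) of each transporter gene, 1 point per library, libraries labelled PEDS1 knockout left (red) and controls right (blue), with circles, squares and triangles for replicates 1, 2 and 3. SLC38A1, SLC7A5, SLC38A2 and SLC7A1 form the upper end, SLC43A2 the lower end, and SLC7A3 lies below SLC7A6 in the libraries labelled knockout and above it in controls.

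The 3 genes whose pattern over the 6 libraries was most like that of SLC7A3, by root mean square distance of log2 deviations from the control mean, were TES (0.034), PPIEL (0.056) and CCDC18-AS1 (0.067). Their log2 fold changes were -0.77, -0.73 and -0.77. The comparison covered 11454 genes with a symbol and a mean normalized count of 100 or more.

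Among other subunits of heteromeric carriers, 5 of 8 were measured. SLC3A2 alone passed the test, as a decrease, beside 7.69% of all genes that fell and 5.95% that rose. SLC7A11, the cystine and glutamate exchanger that also needs SLC3A2, had 3106, 2668 and 4282 normalized counts in the libraries labelled knockout, against 3105, 3037 and 3501 in controls, with overlapping groups (log2 fold change 0.03, limma adjusted p = 0.897). SLC7A8 had a log2 fold change of -0.07 (limma adjusted p = 0.646). SLC7A7 averaged 6.78 normalized counts in the libraries labelled knockout and 8.58 in controls, and SLC7A9 averaged 12.8 in the libraries labelled knockout and 14.7 in controls.

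Of 23 other carriers from the families SLC7, SLC43, SLC38, SLC16, SLC6 and SLC36, 11 were measured, 1 rose and 3 fell, with a median log2 fold change of -0.07. Among all genes 5.95% rose and 7.69% fell. SLC7A14, a lysosomal relative of the cationic carriers, rose by 0.47 (limma adjusted p = 0.0426). SLC6A17, a vesicular carrier of neutral amino acids in neurons, fell by 0.61 (limma adjusted p = 0.0117). SLC43A1, the closest relative of SLC43A2, fell by 0.55 (limma adjusted p = 0.0154), and SLC38A6 by 0.39 (limma adjusted p = 0.0369). Without control replicate 1, 0 of these genes rose and 0 fell, and without control replicate 2, 0 rose and 1 fell, in fits that called fewer genes overall (2.15% of all genes fell without the first and 2.02% without the second). Of the 6 fits with 1 library left out, SLC6A17 passed in 5, SLC43A1 in 4, SLC7A14 in 2 and SLC38A6 in 1.

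Of 14 carriers of the transmitters glutamate, glycine and GABA, 8 were measured. On this list 1 rose and 1 fell, beside 5.95% and 7.69% of all genes. SLC17A7, which loads glutamate into synaptic vesicles, rose: it had 6512, 6439 and 6761 normalized counts in the libraries labelled knockout, against 4710, 4632 and 4104 in controls (log2 fold change 0.55, limma adjusted p = 0.00154). It passed without any 1 of the 6 libraries. SLC1A6, a glutamate uptake carrier, fell by 0.64 (limma adjusted p = 0.0122), a call lost without control replicate 1 or 2. Of 7 lysosomal amino acid carriers 6 were measured and 2 fell, beside 7.69% of all genes. SLC66A1, the lysosomal exporter of lysine and arginine, fell by 0.41 and CTNS, the lysosomal cystine exporter, by 0.37. Neither passed without control replicate 1, without control replicate 2 or after removal of GC and length trends (limma adjusted p = 0.454 for SLC66A1 and 0.0752 for CTNS).

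Regulators of the response to amino acid shortage contained the largest decreases among the lists examined. Of 22 genes on the list from the kinase GCN2 to ATF4 and its partners, 21 were measured, 8 fell and 0 rose, with a median log2 fold change of -0.09. Beside this, 7.69% of all genes fell and 5.95% rose. TRIB3, a pseudokinase that restrains ATF4, had 1026, 989 and 922 normalized counts in the libraries labelled knockout, against 2284, 2454 and 2385 in controls (limma adjusted p = 1.11e-05). DDIT3 had a log2 fold change of -1.42, ATF5 of -1.18 and CEBPB of -0.80, all transcription factor genes that are themselves induced in this response. The count was 6 without control replicate 2, and 8 after removal of GC and length trends, in fits where 2.02% and 8.93% of the genes tested fell. The 4 genes named here passed without any 1 of the 6 libraries, and CEBPB lies near PEDS1 on chromosome 20. ATF4 itself, which is regulated mainly in translation, had 16625, 15730 and 12651 normalized counts in the libraries labelled knockout, against 15832, 15370 and 15748 in controls, with overlapping groups (limma adjusted p = 0.648). EIF2AK4, the gene of GCN2, had a log2 fold change of 0.03 (limma adjusted p = 0.796).

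Of 12 amino acid synthesis genes known as ATF4 targets, all measured, 3 fell and 0 rose, with a median log2 fold change of -0.11. Among all genes 7.69% fell and 5.95% rose. SHMT2, which makes glycine from serine in mitochondria, fell by 0.43 (limma adjusted p = 0.00430) and passed without any 1 of the 6 libraries. PYCR1, of proline synthesis, fell by 0.46 (limma adjusted p = 0.0117), and CBS, of cysteine synthesis, by 0.47 (limma adjusted p = 0.0300). Without control replicate 1 or control replicate 2 the count was 1, when 2.15% and 2.02% of all genes fell. CBS did not pass after removal of GC and length trends (limma adjusted p = 0.0717).

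Of 37 genes through which amino acids reach mTORC1, the kinase complex that drives growth, all were measured, 4 fell and 0 rose. The share called, 10.8%, is close to the 7.69% of all genes that fell. The median log2 fold change was -0.01, the same as over all genes. WDR24 and SEC13, subunits of GATOR2, had log2 fold changes of -0.74 (limma adjusted p = 0.00939) and -0.39 (limma adjusted p = 0.0168). TSC2, an inhibitor of the complex, had -0.41 (limma adjusted p = 0.0434), and DDIT4, a stress-induced inhibitor, had -0.25 (limma adjusted p = 0.0363). Leaving out control replicate 1 gave a count of 0, leaving out control replicate 2 gave 1, and leaving out either of the libraries labelled replicates 1 and 2 of the knockout gave 2. Of all genes 2.15%, 2.02%, 6.03% and 5.23% fell in these 4 fits, in the same order. The count was 6 with the library labelled replicate 3 left out, when 2 rose and 11.1% of all genes fell. DDIT4 was at -0.06 after removal of GC and length trends (limma adjusted p = 0.405).

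**Figure D5:**
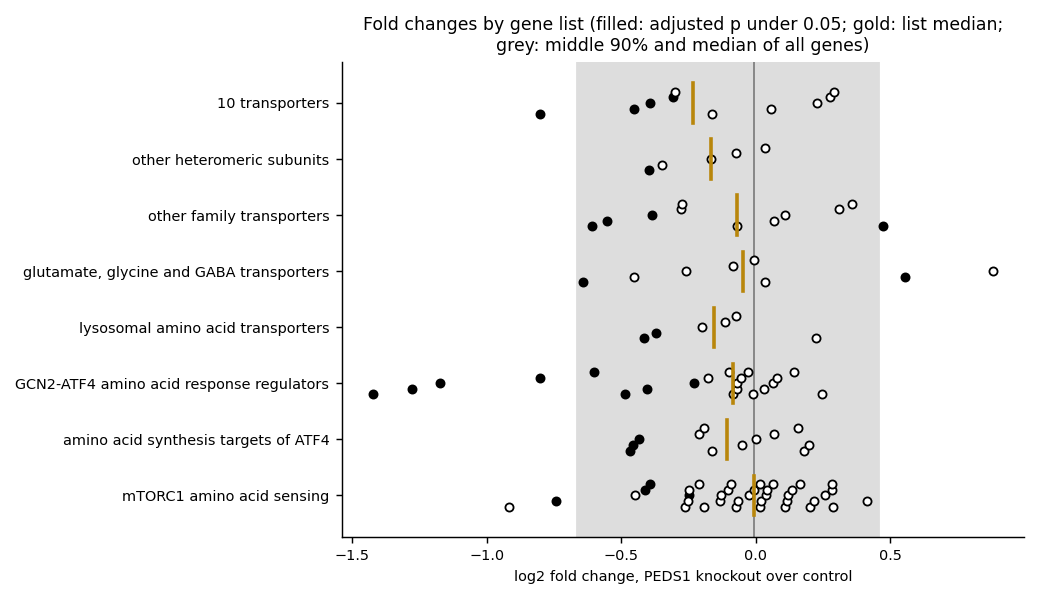
Log2 fold change, PEDS1 knockout over control (x axis), of each measured gene on 8 lists (rows), 1 circle per gene, filled where the limma adjusted p is under 0.05. Gold bars are list medians, and the grey band and line give the middle 90% and the median of all genes. Among the 10 transporters SLC7A3 lies left of the band, and DDIT3, TRIB3 and ATF5 lie farthest left on the list from GCN2 to ATF4.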

How the data were processed

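PolyA RNA of 6 libraries was sequenced, and libraries were grouped by the genotype labels, with replicate numbers from the titles. Per the submitters' processing notes, the authors used STAR 2.7.10b, DESeq2 and the build GRCh38. The sources used here do not give the counting tool, its annotation or its use of strand. For every gene the authors deposited 1 signal value per library, a normalized count (reads over a size factor). In each library 100% of values were multiples of what 1 read is worth (tolerance 1e-06), which gave the recovered reads. Per the file headers, the authors' deposited table also holds a log2 fold change, a Wald score (not used here), a p-value and an adjusted p-value. The adjusted one is empty for 1612 genes.

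Differences were tested with limma 3.58.1 (R 4.3.3) on log2(normalized count + 1), with genotype as the single term, a variance trend and adjustment after Benjamini and Hochberg for 16625 genes. On this scale the fold change of a gene with few reads is understated. Depth was 17996634 to 44573013 recovered reads per library. Ratios were tested with exact permutation tests over libraries, and coordinates and lengths came from GENCODE 29. Library trends on GC content and length were removed with values for 96.5% of genes. Alternatives were other pseudocounts, filters and scalings, edgeR 4.0.16, DESeq2 1.42.0, library weights, a replicate block and each library left out. The code was tested on simulated data. Every pair of replicates exceeded sampling noise, with a mean chi-square per gene of 10.9 to 32.3 in the libraries labelled knockout and 2.67 to 11.8 in controls.

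The 10 genes and the gene lists were chosen with earlier results of these data known. Named were the 10 genes, PEDS1, SLC3A2, the genes of each list that passed (the 4 with the smallest adjusted p where more than 4 did) and the 3 genes nearest to SLC7A3. ATF4, EIF2AK4 and the subunits beside SLC3A2 were named for their roles after their values were seen. Some genes that this rule or the annotation would name are not reported here.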

Additional observations from a re-analysis of the deposited data

How the results depend on the processing

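Of the 10 genes, SLC7A3 and SLC1A5 passed in all 18 fits, SLC1A4 in 16 and SLC6A9 in 12, and no called value changed sign. Of the uncalled genes, SLC7A1 was at -0.068 with library weights and ran from -0.14 to 0.19 with 1 library left out, and SLC7A5 was at 0.036 with the GC and length trends removed. The count that fell was 2 at a threshold of 0.01 and 6 with library weights, and ran from 2 to 5 with 1 library left out. The count that rose was 2 with DESeq2 on recovered reads, 2 in the authors' deposited table, 3 with library weights and 2 with the GC and length trends removed, and ran from 0 to 2 with 1 library left out. The median of the 10 genes was -0.077 with the GC and length trends removed and ran from -0.30 to -0.13 with 1 library left out. The wider lists hold 5, 11, 8, 6, 21, 12 and 37 measured genes. On them 22 genes fell and 2 rose, beside 7.69% and 5.95% of all genes. With library weights 37 fell and 13 rose, beside 3422 and 3192 of all 16625 genes. At a threshold of 0.01 9 fell and 1 rose, beside 372 and 268 of all genes. With the GC and length trends removed 6 rose, beside 11.2% of the genes tested. With 1 library left out 8 to 25 fell and 1 to 5 rose. In those fits 2.02% to 11.1% of all genes fell and 1.49% to 10.4% rose.

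Over all genes, 990 rose and 1279 fell, together 2269. With library weights, which gave control replicate 2 a weight of 11.1 and the library labelled PEDS1 knockout replicate 3 one of 0.188, 3192 rose and 3422 fell, together 6614. At a threshold of 0.01 268 rose and 372 fell, together 640. With the GC and length trends removed 1799 rose and 1433 fell, so that 55.7% of calls rose, against 43.6% before. With 1 library left out 247 to 1728 rose and 335 to 1849 fell, together 582 to 3577. PEDS1 passed at -0.52 with quantile scaling, -0.48 with DESeq2 on recovered reads and in the authors' deposited table, -0.70 with library weights and -0.61 with the GC and length trends removed, and ran from -0.77 to -0.37 with 1 library left out. The causes of these shifts were not tested.

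Same-numbered libraries did not deviate together (correlations of -0.30, 0.10 and -0.05 over 11705 genes), so no pairing by number was seen. With 3 libraries per group, these values cannot exclude such a pairing. With the replicate number as a block 698 genes rose and 862 fell, 3 of the 10 genes fell and 0 rose, and SLC6A9 was lost (limma adjusted p = 0.0605).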

Other observations

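Each gene's part of the summed normalized counts of the 10 transporters, after division by length, was computed within each library and does not depend on the scaling between libraries. GC and length trends were not removed from it. SLC38A1 made up 23.3%, 22.6% and 23.2% in those labelled replicates 1, 2 and 3 of the PEDS1 knockout, against 18.4%, 19.0% and 20.9% in control replicates 1, 2 and 3. SLC38A2 made up 19.5%, 18.1% and 18.4% in the libraries labelled knockout, against 14.6%, 14.8% and 16.2% in controls. These sodium-coupled carriers of glutamine took a higher part in all 3 libraries labelled knockout than in any control. So did SLC7A6, at 5.22%, 4.80% and 4.86% in the libraries labelled knockout, against 3.81%, 3.95% and 4.20% in controls. SLC1A5, the glutamine exchanger, made up 7.72%, 7.97% and 6.42% in the libraries labelled knockout, against 10.2%, 9.95% and 9.55% in controls. SLC7A3 made up 4.09%, 3.31% and 2.89% in the libraries labelled knockout, against 5.76%, 5.89% and 5.85% in controls. Both took a lower part in all 3 libraries labelled knockout than in any control, as did SLC1A4 and SLC6A9. The groups overlapped for SLC7A1, SLC7A5 and SLC43A2. The parts share a fixed whole in each library, so a higher part of a gene lowers the parts of the others.

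As log2 deviations from the control mean, the median over the 10 genes was -0.32, -0.24 and -0.02 in those labelled replicates 1, 2 and 3 of the PEDS1 knockout, against 0.03, 0.00 and -0.03 in control replicates 1, 2 and 3. The library labelled PEDS1 knockout replicate 3 lay near the controls in this median, although it lay outside the control range for 8 of the 10 genes, all but SLC7A5 and SLC43A2, above it for 4 and below it for 4.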
